A study of Mus musculus with 32 samples.

Results

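Adult mouse blood progenitors in which U2AF1 was supplied at the highest dose of doxycycline, 10000 ppm in the chow, were compared with those of untreated wild-type adults. The 4 libraries at 10000 ppm and the 3 untreated libraries were taken by their labelled dose and treatment, with no measured value used, and are 7 of the 32 libraries of the series. All 7 are RNA-seq libraries of sorted adult bone marrow cells that lacked lineage antigens and Sca1 and carried cKit, a gate that holds myeloid, erythroid and megakaryocyte progenitors. Both groups carried Mx1-Cre, rTA and the transgene tgU2AF1(WT). The 10000 ppm mice were U2af1(flox/S34F), so a floxed U2af1 allele lay opposite an allele carrying S34F. They had received pIpC, a synthetic double-stranded RNA that raises interferon and so switches on Mx1-Cre, which per the protocols deleted the floxed allele, and doxycycline, which induced the U2AF1 transgene. The untreated mice were U2af1(wt/wt) and received neither agent. Genotype, pIpC and doxycycline therefore all differed between the groups and cannot be told apart here. The Mx1 promoter answers to interferon in many cell types, so the deletion is not limited to blood cells. A further 10 adult libraries had the genotype of the 10000 ppm mice and pIpC with less doxycycline, 6 at 2500 ppm and 4 at 1250 ppm. Levels of U2af1 were not analysed here, and the labels have no check from the targeted gene.

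U2AF1 is the small subunit of the factor that marks the end of introns. Together with U2AF2 it binds the intron's last bases and brings the spliceosome to the branch point. S34F lies in a zinc finger of U2AF1, is found again and again in myelodysplastic syndromes and acute myeloid leukaemia, and alters which exons are kept. The sorted progenitors give rise to granulocytes, monocytes, red cells and platelets, and normally hold little RNA of B cells, mature neutrophils, macrophages or stroma.

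Library totals ran from 32532540 to 67490378 counts at 10000 ppm and from 50153559 to 58256477 counts in the untreated group. The lowest belonged to replicate 2 at 10000 ppm. Values below are CPM, a gene's counts per 1e6 counts of its library after TMM scaling, listed in the order of replicates 1 to 4 and 1 to 3. A count of 3 corresponds to 0.0458 to 0.0939 CPM in the 7 libraries. A log2 fold change is followed by ± its standard error. Kit, the receptor used in the sort, was at 492, 484, 694 and 760.2 CPM at 10000 ppm and at 592, 596 and 477 CPM in the untreated libraries. Lineage antigens of the sort summed to 262.8 to 814.4 CPM at 10000 ppm and 321.1 to 424.5 CPM untreated, in large part from Ptprc, which blood cells share. The labels do not say that the libraries came from separate animals, so p-values measure the spread between libraries, which may in part be technical. That spread was estimated over all 17 adult libraries, the 10 at lower doses included, and not over the 7 compared libraries alone. Untreated replicate 3 held 0 counts of the Y-linked transcripts Gm29650 and Gm4017, against 17 to 51 and 9 to 41 counts in the other 16 adult libraries. Summed over all 20 chromosome Y genes it held 91 counts, within the 62 to 119 counts of those 16. No batch is labelled for the adult libraries. Counting by strand is not stated either, so genes that overlap another gene are uncertain.

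Few genes were called between the groups, and the called rises and falls were of different kinds. Of 13338 genes tested, 169 were called (1.27%), meaning a Benjamini-Hochberg adjusted p under 0.05 from edgeR's quasi-likelihood fit. More genes may differ than were called. In the same fit 2974 genes (22.3%) had an unadjusted p under 0.05, against 666.9 expected by chance. The 127 genes that rose (0.952%) were mostly scarce in the untreated libraries: 96 of them averaged under 1 CPM there, and 118 rose at least 2-fold, with a median log2 fold change of 3.10. The 42 genes that fell (0.315%) were abundant and moved little: their median untreated level was 84.4 CPM, their median log2 fold change was -0.46, and 5 fell at least 2-fold. The groups did not overlap for 164 of the 169, and over all genes 8.33% lay wholly higher and 10% wholly lower at 10000 ppm. The calls were made from these same libraries, so the lack of overlap among called genes is not separate support. Among the genes that rose, replicate 2 was highest for 69 and replicate 3 lowest for 78 of 127. Among those that fell, replicate 2 was lowest for 30 of 42.

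**Figure D1:**
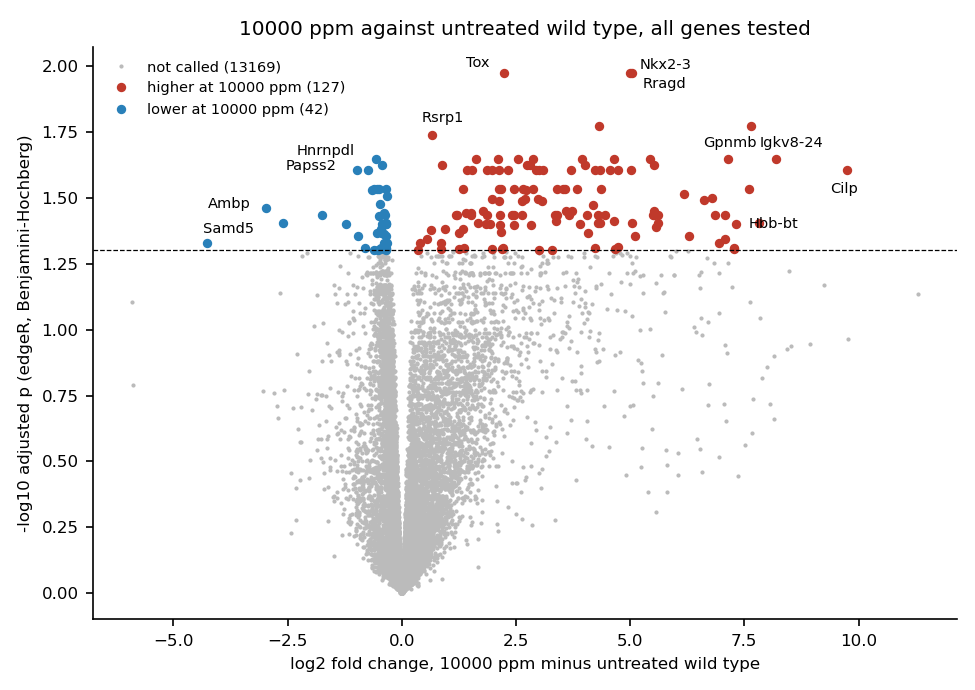
Log2 fold change of each tested gene at 10000 ppm against untreated wild type (x axis) against the adjusted p on a -log10 scale (y axis), with called genes coloured. The 127 genes that rose spread far to the right, with a median of 3.10, while most of the 42 that fell lie close to 0, with a median of -0.46.

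Calls at this sample size moved with single libraries. No gene passed when untreated replicate 2 or untreated replicate 3 was left out, although 2184 and 2327 genes then had an unadjusted p under 0.05 in edgeR, against 2974 with all libraries. The count was 23 without replicate 1 at 10000 ppm, 33 without replicate 2 and 816 without replicate 3. DESeq2 called 1055 of the 13338 genes, 711 higher and 344 lower. Those totals, and the 22.3% of all genes at an unadjusted p under 0.05, are the background for such counts in the lists below. The 14 alternatives tried refit the same counts, and groups that do not overlap can hardly change sign when a library is left out. That none of the 169 changed sign is therefore not support for the calls. In these alternatives 25 genes passed at least 10 times and 10 genes at least 11 times. Those 10 were Gpnmb, Bst1, Gfra2, Hnrnpdl, Kif5a, Nkx2-3, Rsrp1, Timp2, Tox and Zfp532.

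Gpnmb, a transmembrane glycoprotein known from melanosomes and lysosome-rich macrophages, showed the largest contrast among those 10. It measured 39.2, 50.4, 14.6 and 40.6 CPM at 10000 ppm and at 0.265, 0.279 and 0.216 CPM in the untreated libraries, so the lowest treated library held many times the highest untreated one. This was a log2 fold change of 7.14 ± 1.21 (adjusted p = 0.0225), and the call was lost in 2 of 14 alternatives, those without untreated replicate 2 or untreated replicate 3. In the fit of these 7 libraries alone Gpnmb was the single gene called. The lower doses held the transcript at a like level, with means of 43.8 ± 35.0 (SD, n = 6) for 2500 ppm and 32.0 ± 38.3 CPM (SD, n = 4) for 1250 ppm, and 10000 ppm against them gave a log2 fold change of -0.05 ± 0.62 (adjusted p = 0.969). The gene (ENSMUSG00000029816, chromosome 6, 49036546 to 49070929, GRCm38) overlaps no other annotated gene.

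The promoter of Gpnmb is shown because it alone was called in the 7-library fit. RefSeq's table on GRCm38.p6 gives the 120 bases before its start as chr6:49036398-49036517 on the plus strand, written 5′ to 3′ with any searched motif in capitals.
Gpnmb: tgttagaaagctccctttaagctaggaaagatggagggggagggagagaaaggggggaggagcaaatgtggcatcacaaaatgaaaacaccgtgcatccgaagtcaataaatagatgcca
Of 4 motifs searched on both strands of 32817 such windows, namely the octamer ATTTGCAT or its complement ATGCAAAT, the TATA box TATAAA or TTTATA, the GATA site AGATAA or TTATCT and the E-box CACGTG, none occurs in this window. They occur in 0.792%, 6.35%, 4.36% and 3.66% of all windows, and none of the 4 contains another.

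Tox, Nkx2-3 and Rragd shared the smallest adjusted p, 0.0106. They, and Bst1, Gfra2, Timp2, Zfp532, Kif5a, Cdkn1c and Ctse after them, were singled out after their values were seen. Tox, an HMG-box regulator of lymphoid development, lay at 2.05, 2.13, 2.45 and 1.92 CPM at 10000 ppm and 0.673, 0.331 and 0.353 CPM in the untreated libraries, and all 4 treated libraries were above all 3 untreated ones. This was a log2 fold change of 2.24 ± 0.32 (adjusted p = 0.0106), and the gene is ENSMUSG00000041272, chromosome 4, 6686353 to 6991557. The 10 lower-dose libraries lay at 0.533 to 1.20 CPM, all under the 10000 ppm libraries (log2 fold change 1.57 ± 0.22, adjusted p = 0.00785). Nkx2-3, a homeobox factor of spleen and gut vasculature, stood at 1.92, 3.07, 2.65 and 3.95 CPM against 0.0408, 0.0697 and 0.157 CPM (log2 fold change 4.99 ± 0.70, adjusted p = 0.0106). The lower doses averaged 1.02 CPM at 2500 ppm and 0.598 CPM at 1250 ppm, and 10000 ppm against them gave a log2 fold change of 1.88 ± 0.39 (adjusted p = 0.0156), with overlap between libraries. Rragd, a GTPase that brings mTORC1 to the lysosome, was at 0.703, 1.88, 0.355 and 0.766 CPM against 0.0204, 0.0349 and 0.0196 CPM. Its untreated libraries held at most 2 counts, so no fold is given, and its adjusted p was 0.0106.

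Bst1, a cell-surface enzyme of NAD metabolism, measured 3.30, 12.4, 0.764 and 0.993 CPM against 0.163, 0.0174 and 0.118 CPM (log2 fold change 5.45 ± 0.93, adjusted p = 0.0225), and its treated libraries differed widely among themselves. Gfra2, a co-receptor for neurturin, lay at 3.53, 2.60, 0.764 and 1.43 CPM against 0.122, 0.192 and 0.0784 CPM (log2 fold change 3.95 ± 0.67, adjusted p = 0.0225). Timp2, an inhibitor of matrix metalloproteinases, stood at 20.4, 49.0, 13.6 and 23.6 CPM against 9.80, 6.40 and 5.71 CPM (log2 fold change 1.86 ± 0.35, adjusted p = 0.0247). In all 3 the groups did not overlap. Zfp532, a zinc-finger protein gene, was at 2.20, 2.50, 2.06 and 4.15 CPM against 0.550, 0.540 and 0.0784 CPM (log2 fold change 2.80 ± 0.49, adjusted p = 0.0236). Kif5a, a kinesin motor, measured 1.56, 1.28, 1.79 and 1.88 CPM against 0.632, 0.488 and 0.471 CPM (log2 fold change 1.62 ± 0.28, adjusted p = 0.0225).

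Cdkn1c, Ctse, Abcg1, Rsrp1, Elmsan1, Gpr27 and Procr rose as well. Cdkn1c encodes p57, a cyclin-dependent kinase inhibitor of quiescent stem cells. It lay at 10.4, 10.3, 3.498 and 10.5 CPM at 10000 ppm, low in replicate 3, and at 0.673, 0.627 and 0.686 CPM in the untreated libraries (log2 fold change 3.71 ± 0.68, adjusted p = 0.0247). Ctse, a cathepsin of the endosome, stood at 51.1, 57.5, 45.3 and 48.9 CPM against 15.2, 19.0 and 25.9 CPM (log2 fold change 1.34 ± 0.30, adjusted p = 0.0415), and its 10 lower-dose libraries lay at 8.78 to 36.6 CPM (log2 fold change 1.46 ± 0.22, adjusted p = 0.00789). Abcg1, which exports cholesterol from cells, was at 72.9, 94.5, 71.4 and 98.6 CPM against 47.3, 49.6 and 40.1 CPM (log2 fold change 0.89 ± 0.16, adjusted p = 0.0236). Against the lower doses it had a log2 fold change of 0.85 ± 0.12 (adjusted p = 0.00785). Rsrp1, an arginine- and serine-rich protein, measured 364, 407, 358 and 349 CPM against 266, 225 and 206 CPM (log2 fold change 0.67 ± 0.11, adjusted p = 0.0182). Elmsan1, which has ELM2 and SANT domains and overlaps other annotated genes, lay at 161, 171, 128 and 146 CPM against 116, 108 and 122 CPM (log2 fold change 0.40 ± 0.09, adjusted p = 0.0470), abundant in every library. Gpr27, an orphan G-protein-coupled receptor, stood at 1.28, 5.35, 0.302 and 0.0871 CPM against 0, 0.0174 and 0.0196 CPM, highest in replicate 2, with at most 1 count in an untreated library and an adjusted p of 0.0366. Procr, the protein C receptor that marks stem cells, was at 2.00, 2.66, 2.45 and 3.45 CPM against 0.652, 0.627 and 0.529 CPM (log2 fold change 2.13 ± 0.40, adjusted p = 0.0247). It was the 1 gene called among 17 tested Hox, Meis and stem-cell regulators (5.88%, against 0.952% of all genes), whose median log2 fold change was 0.52. Meis1 of the same list had a log2 fold change of 0.77 ± 0.32 (adjusted p = 0.167).

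**Figure D2:**
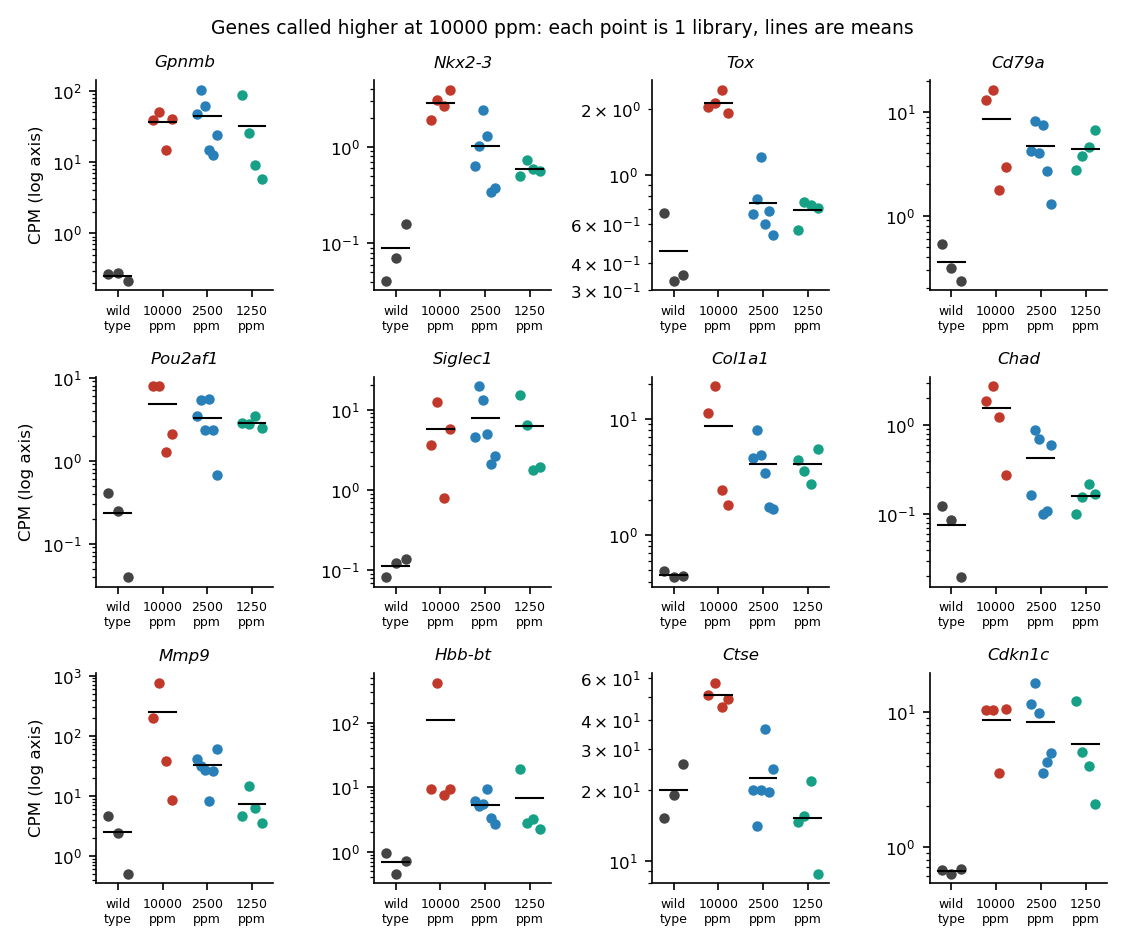
CPM on a log axis for 12 genes that rose, 1 panel each, with points for libraries of the untreated, 1250 ppm, 2500 ppm and 10000 ppm groups and a bar at each mean. Gpnmb and Siglec1 sit high at every dose, Tox, Nkx2-3 and Ctse are highest at 10000 ppm, and Hbb-bt has a single library far above its group.

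B-lineage genes stood higher at 10000 ppm as a group. Of 15 listed markers, 9 were in the table and tested. Of these 5 rose (55.6%, against 0.952% of all genes), all 9 lay above every untreated library (8.33% of all genes did), and the median log2 fold change was 4.44, or 4.36 with a gene at the floor set to its bound, against 0.00 over all genes. Among the called members were Cd79a, Pax5, Pou2af1 and Vpreb3. Cd79a, a signalling chain of the B-cell receptor, measured 12.9, 16.4, 1.76 and 2.96 CPM against 0.530, 0.314 and 0.235 CPM (log2 fold change 4.55 ± 0.83, adjusted p = 0.0247). Replicates 1 and 2 were several times above replicates 3 and 4, and every one of the 4 was above the untreated libraries. Pax5, which commits cells to the B lineage, lay at 16.5, 15.4, 2.33 and 4.11 CPM against 0.632, 0.418 and 0.0196 CPM (log2 fold change 4.74 ± 0.90, adjusted p = 0.0247). Pax5 overlaps antisense transcripts. Pou2af1, the co-activator that joins POU factors at octamer sites, stood at 7.85, 7.92, 1.26 and 2.11 CPM against 0.408, 0.244 and 0.0392 CPM (log2 fold change 4.36 ± 0.85, adjusted p = 0.0291). Vpreb3, a chaperone of the immunoglobulin chains, was at 7.39, 5.91, 1.01 and 1.99 CPM against 0.347, 0.209 and 0 CPM, adjusted p = 0.0366.

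Members that missed the threshold lay above the untreated libraries as well. Dntt, the template-free polymerase of early lymphoid cells, measured 42.8, 28.1, 10.5 and 35.4 CPM against 5.77, 4.65 and 0.490 CPM (log2 fold change 3.0 ± 0.72, adjusted p = 0.0511). Il7r, the receptor for interleukin 7, lay at 5.09, 3.32, 1.07 and 1.79 CPM against 0.999, 0.436 and 0.137 CPM (log2 fold change 2.43 ± 0.64, adjusted p = 0.0607). Cd79b, the partner of Cd79a and also expressed in progenitors here, had a log2 fold change of 0.44 ± 0.12 (adjusted p = 0.0693). The lower doses held Cd79a at means of 4.63 ± 2.68 (SD, n = 6) for 2500 ppm and 4.42 ± 1.63 CPM (SD, n = 4) for 1250 ppm. Summed over the list, B-cell markers came to 131.8, 115.7, 48.8 and 75.4 CPM at 10000 ppm and to 31.3, 30.4 and 18.7 CPM untreated. In bulk libraries a larger share of cells of a type and more RNA in each such cell cannot be told apart, here and for every marker list below. Of the 9 markers, 2 were called without replicate 2 at 10000 ppm and 0 without replicate 1, without untreated replicate 2, without untreated replicate 3 or in the 7-library fit.

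The promoters of 4 of these genes are shown because they moved together and because Pou2af1 acts at the octamer. They are the 120 bases before the start in RefSeq on GRCm38.p6: Cd79a at chr7:24897377-24897496 (plus strand), Vpreb3 at chr10:75948180-75948299 (plus), Pax5 at chr4:44710695-44710814 (minus) and Pou2af1 at chr9:51213570-51213689 (plus). By GENCODE positions Cd79a and Vpreb3 begin earlier, at 24897381 and 75943057, so most or all of each window lies inside the annotated gene. What a window holds or lacks therefore depends on the start taken. Capitals mark the octamer.
Cd79a: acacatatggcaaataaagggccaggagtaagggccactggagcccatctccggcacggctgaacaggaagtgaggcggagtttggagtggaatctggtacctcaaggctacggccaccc
Vpreb3: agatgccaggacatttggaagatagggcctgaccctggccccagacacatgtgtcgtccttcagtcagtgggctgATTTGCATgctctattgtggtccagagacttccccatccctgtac
Pax5: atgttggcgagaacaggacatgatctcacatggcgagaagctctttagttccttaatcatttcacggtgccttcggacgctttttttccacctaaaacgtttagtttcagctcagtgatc
Pou2af1: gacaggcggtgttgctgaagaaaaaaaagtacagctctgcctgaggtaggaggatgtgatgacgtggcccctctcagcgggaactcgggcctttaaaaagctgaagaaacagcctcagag
Vpreb3 holds the octamer from -45 to -38 relative to the start. Its window is 1 of the 260 with an octamer among all 32817, and the letters of none of the 4 motifs occur in the other three.

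Plasma-cell and immunoglobulin transcripts gave fewer calls. Irf4, a transcription factor of activated B and plasma cells, stood at 5.01, 7.29, 1.12 and 1.55 CPM against 0.448, 0.401 and 0.196 CPM (log2 fold change 3.41 ± 0.68, adjusted p = 0.0291), and Mzb1, an endoplasmic reticulum chaperone of antibody chains, had a log2 fold change of 4.08 ± 0.92 (adjusted p = 0.0429). They were 2 of 7 tested plasma-cell markers (28.6%, against 0.952% of all genes). The summed plasma-cell level was 137.5 to 254.8 CPM at 10000 ppm and 268.4 to 308.6 CPM untreated, so the sum did not go with the 2 calls. Of the 182 immunoglobulin segments tabulated, 78 passed the filter on low counts, and 1 was called (1.28%, against 0.952%): Igkv8-24, a kappa variable segment, at 4.46, 2.25, 2.31 and 1.12 CPM against 0.0204, 0 and 0 CPM, adjusted p = 0.0225. Its near copies can share reads. In 151 of the 182 no untreated library exceeded 3 counts, and 50 of the 78 had a group at or under that floor, so those that passed the filter through the dosed libraries had to lie higher there. Their direction is therefore not counted. The summed level was 167.0, 209.7, 31.6 and 25.8 CPM at 10000 ppm and 31.5, 2.60 and 4.88 CPM untreated, so treated replicate 4 lay below untreated replicate 1. Lef1, a lymphoid HMG-box factor chosen after its values were seen, had a log2 fold change of 4.34 ± 0.80 (adjusted p = 0.0247).

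Transcripts of mature neutrophils were very unequal between libraries. Summed over the 9 tested markers they came to 34030, 40530, 5479 and 765.4 CPM at 10000 ppm and to 10050, 4081 and 1040 CPM untreated, so replicate 4 was below all untreated libraries. Of the 9, 2 were called (22.2%, against 0.952% of all genes), Mmp8 and Mmp9, with a median of 2.64 over the list. Mmp9, a gelatinase stored in neutrophil granules, was at 196, 765, 38.2 and 8.69 CPM against 4.73, 2.42 and 0.510 CPM (log2 fold change 6.63 ± 1.36, adjusted p = 0.0322). Without replicate 2 it came to 4.99 with an adjusted p of 0.0636. Mmp8, the neutrophil collagenase, measured 75.5, 279, 19.8 and 4.76 CPM against 3.53, 2.23 and 0.471 CPM (log2 fold change 5.51 ± 1.19, adjusted p = 0.0366). Ly6g, a surface antigen of mature neutrophils, had a log2 fold change of 4.11 ± 1.27 (adjusted p = 0.0861). By contrast, 7 of 8 primary granule genes, which are made in promyelocytes, lay below 0, with a median of -0.46, 0 calls, 3 at an unadjusted p under 0.05 and 2 called lower by DESeq2. Mpo, the most abundant of the named ones, lay at 25100, 22990, 29580 and 13290 CPM against 29810, 32990 and 25240 CPM (log2 fold change -0.37 ± 0.21, adjusted p = 0.301).

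Of 16 tested erythroid genes 2 rose (12.5%, against 0.952% of all genes), Hbb-bt and Alas2, and both were far higher in replicate 2 than in the other libraries. Above 0 lay 14 of the 16, with a median of 0.91, 6 lay above every untreated library (8.33% of all genes did) and 7 had an unadjusted p under 0.05 (22.3%). Their summed level was highest in replicate 4, at 1230, 1648, 1250 and 2165 CPM against 956.9, 641.4 and 1848 CPM, and untreated replicate 3 was above 3 of the treated libraries. Each of the 2 calls held in 2 of the 7 fits with a library left out. Hbb-bt, an adult beta-globin, stood at 9.26, 419.7, 7.58 and 9.44 CPM against 0.938, 0.453 and 0.706 CPM, which was a log2 fold change of 7.32 ± 1.62 (adjusted p = 0.0397). Without that library the log2 fold change was 3.65 with an adjusted p of 0.0537. Each treated library was nevertheless above each untreated one. Hbb-bt has a near-identical partner, Hbb-bs, and the split of reads between them is uncertain. Alas2, the first enzyme of haem synthesis in red cells, was at 3.10, 118, 1.23 and 2.74 CPM against 0.224, 0.0697 and 0.314 CPM (log2 fold change 7.26 ± 1.71, adjusted p = 0.0493), and without replicate 2 at 3.54 with an adjusted p of 0.103. It overlaps Apex2 on the other strand.

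The promoters of both genes are shown since they are the erythroid calls. They are Hbb-bt at chr7:103813924-103814043 (minus strand) and Alas2 at chrX:150547297-150547416 (plus strand), from the same RefSeq windows. Both lie partly inside the gene as placed by GENCODE, with Hbb-bt at 103812524 to 103813996 and Alas2 from 150547375.
Hbb-bt: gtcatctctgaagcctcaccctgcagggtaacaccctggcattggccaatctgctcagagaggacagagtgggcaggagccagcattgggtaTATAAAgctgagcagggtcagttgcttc
Alas2: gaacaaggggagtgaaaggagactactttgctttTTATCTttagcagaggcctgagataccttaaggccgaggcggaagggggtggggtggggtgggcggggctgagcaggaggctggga
Capitals mark a TATA box at -28 to -23 in Hbb-bt and a GATA site, read on the other strand, at -86 to -81 in Alas2. Such a match is a description of the letters, found in 6.35% and 4.36% of all windows.

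**Figure D3:**
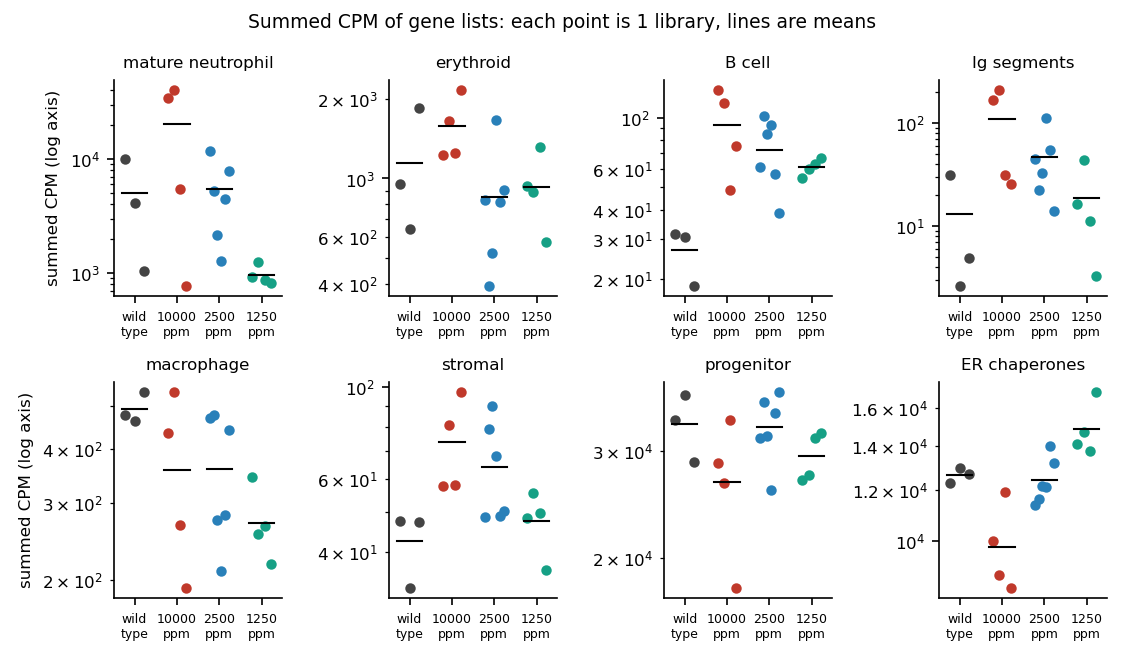
Summed CPM on a log axis of 8 marker lists in each adult library, by group, with a bar at each mean. Mature neutrophil markers range from 765.4 to 40530 CPM within the 10000 ppm group, while B-cell markers at 10000 ppm, 48.8 to 131.8 CPM, all lie above the untreated libraries, 18.7 to 31.3 CPM.

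Of 13 tested macrophage genes 1 rose (7.69%, against 0.952% of all genes), 9 lay above every untreated library (8.33% of all genes did) and 11 had an unadjusted p under 0.05 (22.3%). Mertk, the receptor with which macrophages take up dying cells, measured 2.05, 4.73, 0.551 and 4.18 CPM against 0.0408, 0.122 and 0 CPM (log2 fold change 5.61 ± 1.20, adjusted p = 0.0366). The median over the 13 was 2.73, and DESeq2 called 9 of them. Cd5l, a secreted protein of tissue macrophages, lay at 3.76, 17.9, 0.852 and 10.8 CPM against 0.0408, 0.174 and 0.196 CPM (log2 fold change 5.88 ± 1.43, adjusted p = 0.0523). C1qa, a chain of complement C1q, stood at 3.48, 18.1, 0.852 and 6.57 CPM against 0.122, 0.471 and 0.314 CPM (log2 fold change 4.55 ± 1.20, adjusted p = 0.0607). Hmox1, haem oxygenase, had a log2 fold change of 2.73 ± 0.72 (adjusted p = 0.0607) and Axl, a relative of Mertk, a log2 fold change of 2.50 ± 0.76 (adjusted p = 0.0842). Replicate 2 was highest and replicate 3 lowest for Mertk, Cd5l and C1qa. Vcam1, an adhesion molecule of niche macrophages and stroma, was at 233, 230.4, 153 and 37.8 CPM against 326, 339.6 and 432 CPM (log2 fold change -1.16 ± 0.52, adjusted p = 0.199). With Vcam1 included, the summed level was 433.8, 539.5, 267.7 and 191.1 CPM against 476.9, 462.6 and 539.6 CPM.

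Outside that list stood Siglec1 and Cd36, picked after their values were seen, and Fcna. Siglec1, the sialic acid receptor CD169, measured 3.65, 12.6, 0.781 and 5.78 CPM against 0.0815, 0.122 and 0.137 CPM (log2 fold change 5.61 ± 1.23, adjusted p = 0.0393), and its means at 2500 and 1250 ppm were 7.84 and 6.32 CPM. Fcna, a ficolin of tissue macrophages, had a log2 fold change of 6.94 ± 1.61 (adjusted p = 0.0469). Cd36, a scavenger receptor also made by erythroid progenitors, had a log2 fold change of 3.60 ± 0.75 (adjusted p = 0.0353). The macrophage list gave 0 calls between 10000 ppm and the lower doses, with a median of 0.07. Hmox1 stood at means of 16.99 CPM at 10000 ppm, 14.7 CPM at 2500 ppm and 17.7 CPM at 1250 ppm.

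Matrix and stromal genes gave 3 calls among 11 tested of 15 in the table (27.3%, against 0.952% of all genes), Col1a1, Sparc and Dcn. In 7 of the 15 no untreated library exceeded 3 counts, and 4 of the 11 tested had a group at or under that floor. Members that passed the filter through the dosed libraries had to lie higher there, so the share is not read as support. The median log2 fold change was 2.55, or 1.53 with those 4 set to their bounds. The list's sums were 57.8, 80.8, 58.1 and 97.1 CPM against 47.5, 32.8 and 47.3 CPM. Lum had 0 counts in every untreated library. Col1a1, the main chain of type I collagen, lay at 11.3, 19.1, 2.43 and 1.81 CPM against 0.489, 0.436 and 0.451 CPM (log2 fold change 4.23 ± 0.80, adjusted p = 0.0247). Sparc, a collagen-binding protein of bone, had a log2 fold change of 4.18 ± 0.87 (adjusted p = 0.0335). Dcn, the proteoglycan decorin, stood at 2.32, 1.66, 0.639 and 0.139 CPM against 0.0408, 0 and 0 CPM, adjusted p = 0.0440. The calls of the neutrophil, erythroid, plasma-cell, macrophage and stromal lists were all lost without replicate 1 or replicate 2 at 10000 ppm, or without any single untreated library. The part of these markers in the other rises was not tested.

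Cartilage matrix genes outside the list were singled out after their values were seen, except Cilp. Cilp, a protein of cartilage matrix, had 0 counts in the 3 untreated libraries and 4.09, 2.88, 0.408 and 0.488 CPM at 10000 ppm, at least 34.3-fold higher against a floor of 3 counts per library, adjusted p = 0.0247. Chad, chondroadherin, was at 1.89, 2.75, 1.24 and 0.279 CPM against 0.122, 0.0871 and 0.0196 CPM, and Fmod, fibromodulin, at 0.183, 0.188, 0.7103 and 0.314 CPM against 0 counts in all 3. Mgp, which restrains calcification of cartilage, measured 1.497, 0.125, 0.408 and 0.436 CPM against 0, 0 and 0.0196 CPM. Their adjusted p-values were 0.0393 for Chad, 0.0491 for Fmod and 0.0305 for Mgp. Replicates 1 and 2 were highest for Chad, replicate 3 for Fmod and replicate 1 for Mgp.

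The genes that fell included factors of RNA processing. Of 28 tested SR and hnRNP proteins, which bind pre-mRNA and steer splice-site choice, 2 fell (7.14%, against 0.315% of all genes), 24 lay below 0 and 12 lay below every untreated library (10% of all genes did), with a median of -0.13. Hnrnpdl, an hnRNP of the D family (ENSMUSG00000029328, chromosome 5, 100033577 to 100039664), lay at 205, 201, 196 and 190.1 CPM against 276, 309 and 298 CPM, so the highest treated library was well under the lowest untreated one (log2 fold change -0.57 ± 0.09, adjusted p = 0.0225). Its fall was not particular to 10000 ppm: against untreated wild type the log2 fold change was -0.67 at 2500 ppm and -0.54 at 1250 ppm. Srsf6, an SR protein, stood at 353, 306, 344 and 312 CPM against 399, 412 and 442 CPM (log2 fold change -0.35 ± 0.08, adjusted p = 0.0490). Outside that list, Xrn2, the nuclear 5′ to 3′ exonuclease of transcription termination, had a log2 fold change of -0.46 ± 0.11 (adjusted p = 0.0491), and Dusp11, an RNA phosphatase, a log2 fold change of -0.33 ± 0.08 (adjusted p = 0.0470). Luc7l, a U1-associated factor, had a log2 fold change of -0.53 ± 0.12 (adjusted p = 0.0429), Arglu1, a splicing co-regulator, a log2 fold change of -0.50 ± 0.10 (adjusted p = 0.0291), and Smn1, which assembles snRNPs, a log2 fold change of -0.34 ± 0.08 (adjusted p = 0.0397), all 3 singled out after their values were seen. Arglu1 was at 90.0, 75.3, 83.8 and 83.0 CPM against 127, 113 and 112 CPM. Luc7l overlaps other annotated transcripts.

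The machinery that U2AF1 works in gave no call. Of 18 tested factors of 3′ splice-site recognition 0 were called, at a median of -0.08, with 13 below 0, 6 wholly below the untreated libraries (10% of all genes were) and 6 at an unadjusted p under 0.05 (22.3%). DESeq2 called 1. U2af2, the partner of U2AF1, measured 291, 281, 277 and 281 CPM against 299, 292 and 321 CPM (log2 fold change -0.11 ± 0.08, adjusted p = 0.416). Sf3b1, which binds the branch point, lay at 633, 534, 666 and 618 CPM against 782, 715 and 689 CPM (log2 fold change -0.25 ± 0.12, adjusted p = 0.222). Of 16 nonsense-mediated decay factors, which destroy mis-spliced messages, 0 were called, 5 had an unadjusted p under 0.05, the median was -0.06 and DESeq2 called 1.

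**Figure D4:**
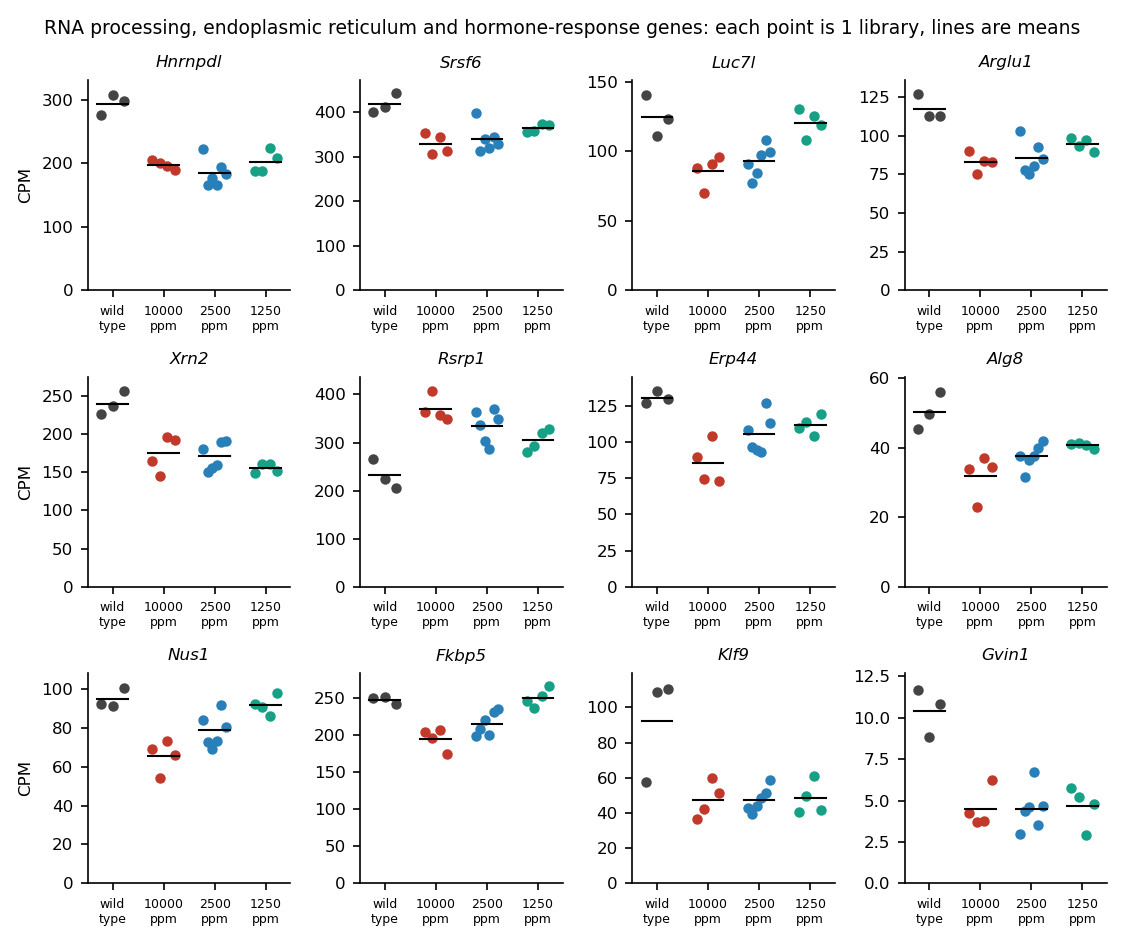
CPM on a linear axis from 0 for 12 genes, 1 panel each, with points for libraries by group and a bar at each mean. Hnrnpdl at 10000 ppm, 190.1 to 205 CPM, lies below the untreated 276 to 309 CPM, and Rsrp1 lies the other way.

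Erp44, Alg8, Dnajc10, Edem3 and Nus1, which act in the secretory pathway, fell by small amounts. Erp44, which retains unassembled proteins, stood at 89.6, 74.6, 104 and 72.7 CPM against 127, 135 and 129.6 CPM (log2 fold change -0.61 ± 0.12, adjusted p = 0.0291). Alg8, a glucosyltransferase that builds the sugar chain for N-glycosylation, had a log2 fold change of -0.65 ± 0.13 (adjusted p = 0.0296). Dnajc10, a disulphide reductase, Edem3, which trims sugars of misfolded proteins, and Nus1, which makes the lipid carrier of those sugars, were picked after their values were seen, at -0.44, -0.35 and -0.53, with adjusted p-values of 0.0397, 0.0397 and 0.0291. Of the 17 tested endoplasmic reticulum chaperones 0 were called against untreated wild type, yet all 17 lay below 0, with a median of -0.32, 13 had an unadjusted p under 0.05 (22.3% of all genes did) and 7 lay below every untreated library (10%). DESeq2 called 5 of them. Hsp90b1, the chaperone GRP94, was at 974, 722, 1222 and 791 CPM against 1359, 1421 and 1410 CPM (log2 fold change -0.59 ± 0.17, adjusted p = 0.0716), and Hspa5, the chaperone BiP, at 1326, 1371, 1549 and 1061 CPM against 1665, 1618 and 1599 CPM (log2 fold change -0.29 ± 0.13, adjusted p = 0.193). Summed, the chaperones came to 10000, 8899, 11880 and 8471 CPM against 12280, 12950 and 12670 CPM.

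Interferon-stimulated genes gave no rise against untreated wild type. Of 51 tested, 0 were called higher and 1 lower (1.96%, against 0.315% of all genes), and DESeq2 called 0 higher and 9 lower. At an unadjusted p under 0.05 stood 22 (22.3% of all genes did), 12 lay below every untreated library (10%), 38 lay below 0 and the median was -0.22. Gvin1, a large interferon-induced GTPase with close copies nearby, measured 4.23, 3.69, 3.75 and 6.22 CPM against 11.7, 8.82 and 10.8 CPM (log2 fold change -1.22 ± 0.27, adjusted p = 0.0397). Its means at the lower doses were alike, 4.48 CPM at 2500 ppm and 4.66 CPM at 1250 ppm. Bst2, tetherin, had a log2 fold change of -0.40 ± 0.16 (adjusted p = 0.161). Il15ra, the receptor chain that presents interleukin 15, lay at 15.6, 16.1, 16.1 and 11.5 CPM against 23.0, 25.02 and 26.1 CPM (log2 fold change -0.74 ± 0.14, adjusted p = 0.0247). Its means were 16.55 CPM at 2500 ppm and 16.9 CPM at 1250 ppm. The summed level of the list was 2997 to 3347 CPM against 3472 to 3877 CPM.

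Ambp, 9130208D14Rik, Papss2, Osbpl3, Ppp2ca, Fkbp5, Klf9 and Samd5 also fell. Ambp, the precursor of alpha-1-microglobulin and bikunin, stood at 0.183, 0.157, 0.178 and 0.192 CPM against 0.265, 1.64 and 2.33 CPM (log2 fold change -2.97 ± 0.62, adjusted p = 0.0346). Its treated libraries were alike and low, and untreated replicate 1 lay just above them. 9130208D14Rik, annotated as an unprocessed pseudogene and overlapped on the other strand by Gm15645, was at 0.229, 0.219, 0.604 and 0.575 CPM against 1.37, 1.22 and 1.55 CPM (log2 fold change -1.74 ± 0.38, adjusted p = 0.0366). The groups did not overlap for either. Papss2, which makes the sulphate donor for sulphation, measured 37.7, 36.4, 47.3 and 23.2 CPM against 66.5, 77.1 and 70.9 CPM (log2 fold change -0.99 ± 0.19, adjusted p = 0.0247). Osbpl3, an oxysterol-binding protein, had a log2 fold change of -0.61 ± 0.14 (adjusted p = 0.0499), and Ppp2ca, the catalytic subunit of phosphatase 2A, a log2 fold change of -0.36 ± 0.08 (adjusted p = 0.0366). Fkbp5 and Klf9 are both known targets of the glucocorticoid receptor. Fkbp5 lay at 204, 196, 207 and 174 CPM against 249.8, 251 and 242 CPM (log2 fold change -0.34 ± 0.08, adjusted p = 0.0393) and overlaps another gene. Klf9, picked after its values were seen, stood at 36.5, 42.2, 60.1 and 51.5 CPM against 57.6, 109 and 110.2 CPM (log2 fold change -0.95 ± 0.22, adjusted p = 0.0439), and treated replicate 3 lay above untreated replicate 1. Samd5, picked likewise, had a log2 fold change of -4.26 with overlapping groups, and -2.14 with an adjusted p of 0.277 without untreated replicate 2.

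Lists without a call against untreated wild type covered much of the progenitor's normal program. None of 11 progenitor markers was called, with a median of 0.11, 2 at an unadjusted p under 0.05 and summed levels of 28580, 26580, 33660 and 17810 CPM against 33700, 37070 and 28780 CPM. The same held for 12 megakaryocyte and platelet genes (median 1.02, with 8 at an unadjusted p under 0.05), 26 p53 targets (0.16, with 7), 20 mitosis genes (-0.17, with 8), 45 cytosolic ribosomal proteins (-0.03, with 1), 72 nuclear subunits of the respiratory chain (-0.08, with 12) and 26 targets of the ATF4 stress response (-0.14, with 2). DESeq2 called 1 progenitor marker, 2 megakaryocyte genes, 1 p53 target, 1 mitosis gene, 5 respiratory chain subunits and 0 of the other 2 lists. Over all 13338 genes it called 1055, and 22.3% had an unadjusted p under 0.05 in edgeR. Cdkn1a, the p53 target p21, had a log2 fold change of 0.36 ± 0.30 (adjusted p = 0.514). All 20 mitosis genes lay below 0. T and NK cell, endothelial, mast cell, eosinophil, monocyte and MHC class II lists gave 0 calls, with medians from -0.06 to 1.72, 1 to 6 genes each at an unadjusted p under 0.05 and 1 to 4 called by DESeq2.

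Against the 10 libraries at 2500 and 1250 ppm, which shared genotype and pIpC with the 10000 ppm mice, more genes passed. edgeR called 1242 of 13338 genes (9.31%), 609 higher (4.57%) and 633 lower (4.75%). An unadjusted p under 0.05 was reached by 27.0%, while 0.45% of all genes lay wholly above and 0.555% wholly below the 10 lower-dose libraries. With relative log expression scaling in place of TMM the split was 622 higher and 421 lower, and with the most abundant genes left out of the whole fit 632 and 384. Without replicate 2 at 10000 ppm 17 genes passed, with replicate numbers as a block 39, and with only replicates 3 and 4 at 10000 ppm, a choice made after the data were seen, 1 gene. This comparison and the one above share the 10000 ppm libraries. Of the 127 genes that rose against untreated wild type, 47 were also called higher here and 80 were not called. Of the 42 that fell, 12 were also called lower here and 30 were not called.

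Mature neutrophil genes led the rises over the lower doses, with all 9 tested called higher (4.57% of all genes were) at a median of 3.39. Ltf, lactoferrin, had a log2 fold change of 3.44 ± 0.75 (adjusted p = 0.0181), Camp, the cathelicidin, a log2 fold change of 2.86 ± 0.70 (adjusted p = 0.0254), and Ngp, a secondary granule protein, a log2 fold change of 3.17 ± 0.71 (adjusted p = 0.0189). Of the 9, 0 were called without replicate 2 at 10000 ppm and 5 without replicate 1. Of 12 megakaryocyte genes 7 rose (58.3%), among them Itga2b, the platelet integrin chain CD41, at a log2 fold change of 1.11 ± 0.26 (adjusted p = 0.0216), and Ppbp, a platelet chemokine, at a log2 fold change of 2.71 ± 0.67 (adjusted p = 0.0254). Of 16 erythroid genes 6 rose (37.5%), whereas 4.57% of all genes did. Immunoglobulin segments that passed the filter through the 10000 ppm libraries alone had to lie higher there, so their rises are not counted. Interferon-stimulated genes gave 7 rises among 51 (13.7%), including Irf7, which amplifies the interferon response, at a log2 fold change of 1.02 ± 0.30 (adjusted p = 0.0464). Without replicate 2 no megakaryocyte, erythroid or interferon-stimulated gene was called.

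Endoplasmic reticulum chaperones led the falls, with 12 of 17 called lower (70.6%, against 4.75% of all genes) and a median of -0.46. Pdia6, a disulphide isomerase, was at 446, 377, 565 and 393 CPM at 10000 ppm, while its means were 631 ± 54.4 (SD, n = 6) for 2500 ppm and 779.6 ± 75.2 CPM (SD, n = 4) for 1250 ppm (log2 fold change -0.66 ± 0.10, adjusted p = 0.00967). It passed in each of 14 fits that left out a library. Manf, a secreted stress protein of the reticulum, had a log2 fold change of -0.58 ± 0.10 (adjusted p = 0.0133), Hspa5 a log2 fold change of -0.48 ± 0.10 (adjusted p = 0.0176), and Calr, calreticulin, a log2 fold change of -0.51 ± 0.09 (adjusted p = 0.0133). With replicate 2 left out 1 chaperone was called, and with replicate 1 left out 10. Nuclear subunits of the respiratory chain gave 24 falls among 72 (33.3%), and mitochondrial ribosomal proteins 17 among 69 (24.6%), against 4.75% of all genes. Mrpl45, for example, had a log2 fold change of -0.25 ± 0.07 (adjusted p = 0.0378). These 2 lists had no call without replicate 2.

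Few genes separated 10000 ppm from every lower-dose library. Pkhd1l1, a large membrane protein, measured 4.46, 4.82, 2.13 and 3.38 CPM against 0.398 to 1.87 CPM over the 10 lower-dose libraries (log2 fold change 1.78 ± 0.35, adjusted p = 0.0145). Nid2, the basement membrane protein nidogen 2, lay at 3.53, 2.16, 3.05 and 2.33 CPM against 3.75 to 14 CPM (log2 fold change -1.65 ± 0.30, adjusted p = 0.0133). Degs2, an enzyme of ceramide synthesis, stood at 0.703, 0.876, 1.10 and 0.976 CPM against 1.14 to 10.99 CPM (log2 fold change -1.98 ± 0.45, adjusted p = 0.0197). D630023F18Rik was at 0.0458, 0.125, 0.142 and 0.174 CPM against 0.297 to 2.09 CPM (log2 fold change -3.04 ± 0.69, adjusted p = 0.0204). For Nid2 and Degs2 the untreated libraries, at 1.20, 1.24 and 2.999 CPM and 0.489, 1.10 and 1.96 CPM, overlapped the 10000 ppm range.

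**Figure D5:**
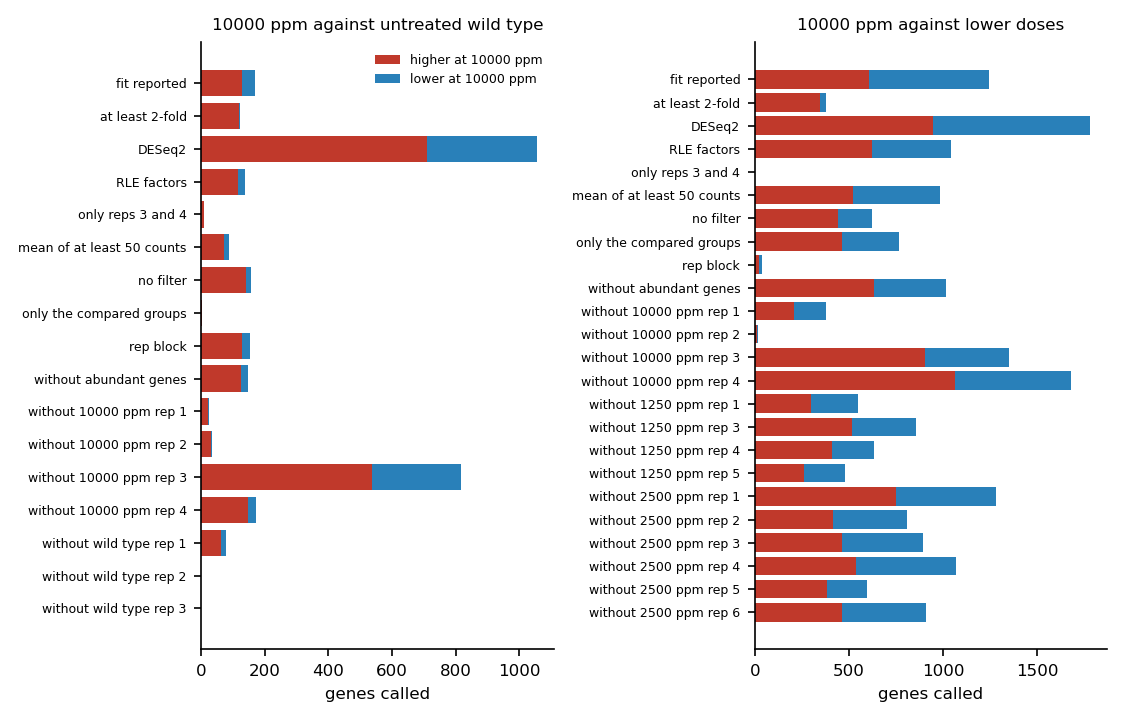
Number of genes called higher and lower at 10000 ppm against untreated wild type (bars from 0) under each setting or with each library left out. The count is 169 with all libraries, 816 without replicate 3 at 10000 ppm, and 0 without untreated replicate 2 or untreated replicate 3.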

How the data were processed

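Ribosomal-RNA-depleted RNA of the sorted cells was sequenced as paired 150-base reads and aligned with HISAT2 2.1.0 to GRCm38 from Ensembl, per the labels and the series' design text, which also name DESeq2 and rMATS 4.1.0. The table holds the authors' deposited raw counts per gene for 32 libraries and 27728 genes. The counting tool, its strand setting and the annotation release are not given in the sources used here. Gene positions came from GENCODE M21 on GRCm38.

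The test was edgeR 4.0.16 (R 4.3.3, limma 3.58.1) with TMM scaling, its filter on low counts and quasi-likelihood fits over all 17 adult libraries, with contrasts of 10000 ppm against untreated wild type and against the mean of 2500 and 1250 ppm. It was tested on simulated data first. P-values were adjusted by Benjamini-Hochberg over 13338 genes, and a gene was called at an adjusted p under 0.05. Alternatives were DESeq2 1.42.0, other scalings and filters, the 7 libraries alone, a replicate block and each library left out. A fit with only replicates 3 and 4 at 10000 ppm was added after the data were seen. A group was treated as at the floor for a gene when none of its libraries held more than 3 counts. The floor entered only the bounds on folds and medians, not the tests or CPM. Counting error falls with depth and is widest in the shallowest library, and intervals from it cover counting error only. The other 15 libraries, from fetal liver, were not used. Same-numbered libraries of the 2 groups had correlations of deviations of 0.17, -0.01 and 0.02 and so are not pairs, and the 9 pairs of libraries within the 2 groups all differed beyond sampling noise.

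Genes were named by rule: without overlap between the groups, the 8 largest rises and 8 largest falls with at least 50 mean counts, the 6 most abundant of each direction, and 3 of each direction against the lower doses. Called members and, in lists with few calls, the 3 most abundant could be named. Other list members were picked as examples after their values were seen. Members and lists were chosen with earlier results of these data known. Besides those marked, Tox, Cdkn1c, Abcg1, Bst1, Chad, Mertk, Timp2, Zfp532, Lef1, Manf and Pdia6 overlap other annotated genes. Promoter windows were matched for 86 of the 127 genes that rose and 32 of the 42 that fell.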

Additional observations from a re-analysis of the deposited data

Results flagged for a closer look

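Within the 4 libraries at 10000 ppm, 93 named genes and 15 summed lists were examined for a library whose gap to its nearest neighbour took up most of the group's range, and 5 had one. For independent, normally spread values chance gives about 1 in 20 such groups, here 5.4, and 5 is no more than that. Genes and lists measured in the same libraries are not independent, so this number is a rough guide and settles no single flag. Alas2 was 117.5 CPM in replicate 2 and 1.23 to 3.10 CPM in the others. Hbb-bt was 419.7 CPM in the same library and 7.58 to 9.44 CPM in the others. Cdkn1c was 3.498 CPM in replicate 3 and 10.3 to 10.5 CPM in the others. Il15ra was 11.5 CPM in replicate 4 and 15.6 to 16.1 CPM in the others. The summed level of monocyte and dendritic markers was 1158 CPM in replicate 4 and 1889 to 1941 CPM in the others.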

How the results depend on the processing

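Against untreated wild type, 169 genes passed. The count was 1055 with DESeq2 (711 higher and 344 lower, 167 of them among the 169), 87 with a mean of at least 50 counts, 1 with the 7 libraries alone and 8 with only replicates 3 and 4 at 10000 ppm, chosen after the data were seen, and it ran from 0 to 816 with a library left out. Against the lower doses, 1242 genes passed, 379 of them at least 2-fold. The count was 622 without the filter, 765 with the compared groups alone and 1 with only replicates 3 and 4, and it ran from 17 to 1679 with a library left out. With the replicate number as a block it was 154 against untreated wild type (101 of them among the 169) and 39 against the lower doses, and the numbers share no stated source. The counts were 136 and 1043 with relative log expression scaling, 155 against untreated wild type without the filter, and 148 and 1016 without the most abundant genes. Gpnmb against the lower doses changed sign, from -0.05 to 0.25 without replicate 3 at 10000 ppm (-0.25 without replicate 2), 0.58 without 1250 ppm replicate 1, 0.18 without 2500 ppm replicate 2 and 0.01 without 2500 ppm replicate 3. It was the only one among 108 values for named genes to do so: of 1790 refits, 1213 kept direction and side of the threshold, 554 lost a call and 19 gained one. The cause was not tested. Depth limits the scarce genes most: 24 of the 169 had a group at or under 3 counts per library.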
